A study of Mus musculus with 6 samples.

Results

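Binding of NOVA1 and NOVA2 was described in 6 long noncoding RNA genes of mouse cortex, Meg3, Rian, Mirg, Malat1, Neat1 and Miat, and in the plus strand of the imprinted stretch chr12:110779211-110900000 (mm9) that holds Meg3 and Rian. A CLIP cluster belonged to these members when it overlapped the GENCODE vM1 span of a gene, or that stretch, by 1 nt or more in its own orientation. The members held 47 of the 9988 NOVA1 clusters and 57 of the 36591 NOVA2 clusters. The tissue was cortex of wild-type CD1 embryos at embryonic day 18.5, shared by both groups, and crosslinked RNA was recovered with NOVA1 (3 libraries) or NOVA2 (3 libraries) and sequenced by HITS-CLIP. The genes were chosen by the tag counts of their clusters, since 4 clusters in Meg3 and Malat1 were among the highest of both lists, so these counts and the overlaps between the lists are a description and carry no test.

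Each cluster carried 1 tag count, pooled over the 3 libraries of its protein and not scaled to depth. Listed clusters held at least 10 tags and were found in at least 2 of the 3 libraries. The lists do not say whether the count is all tags of a cluster or a peak height, the term that the study has for its threshold. If it is a height, the sums and shares of tags given here are those of heights. The lists give no value per library and single libraries were not used here, so no difference below could be set against replicate error. The 95% intervals of shares and of YCAY folds reflect error of counting alone. Those of medians reflect the spread between pairs of clusters. The lists summed to 304703 NOVA1 and 1309270 NOVA2 tags, a 4.30-fold difference (log2 of NOVA1 over NOVA2, -2.10). A tag count depends on the amount of an RNA and on its binding, which cannot be told apart here, and in whole cortex fewer cells of a type and less RNA per cell cannot be told apart either. The lists hold no expression values, so neither the abundance nor the nuclear location of these RNAs was measured, and the tissue could not be checked against marker levels.

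NOVA1 and NOVA2 are neuronal splicing regulators whose KH domains bind the tetramer YCAY, where Y is C or U. Meg3, Rian and Mirg are transcribed from the maternal chromosome of the Dlk1-Dio3 imprinted domain. Rian hosts C/D box small nucleolar RNAs and Mirg hosts microRNAs. Malat1 is a nuclear RNA of the speckles where splicing factors collect, Neat1 is the scaffold of paraspeckles, and Miat, also called Gomafu, is a nuclear RNA of neurons.

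The members held 6299 NOVA1 tags, 2.07% (2.02 to 2.12) of the list, and 18261 NOVA2 tags, 1.39% (1.37 to 1.41). Of this, 3 clusters in Meg3 and 1 in Malat1 carried most, and without these 4 the shares were 0.416% and 0.234%. These 4 were also the only member clusters among the 100 highest of either list.

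The sequences of these 4 are shown first because they carried most of the signal. For each cluster the 100 nt with the most YCAY (TCAT and TCAC as well as CCAT and CCAC in the DNA letters of mm9) are printed on the strand of the RNA, and capitals mark YCAY. Matches that shared a base were each counted, and the opposite strand was not searched. The last sequence is the highest Malat1 cluster that NOVA1 had and NOVA2 lacked.
Meg3 cluster of most NOVA2 tags, chr12:110802961-110803060, plus strand: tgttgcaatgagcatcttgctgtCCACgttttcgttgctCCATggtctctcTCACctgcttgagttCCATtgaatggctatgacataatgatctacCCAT
Meg3 cluster of most YCAY motifs, chr12:110804524-110804623, plus strand: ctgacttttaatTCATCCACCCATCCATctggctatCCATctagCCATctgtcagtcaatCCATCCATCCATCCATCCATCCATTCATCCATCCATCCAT
Meg3 cluster next by NOVA2 tags, chr12:110800721-110800820, plus strand: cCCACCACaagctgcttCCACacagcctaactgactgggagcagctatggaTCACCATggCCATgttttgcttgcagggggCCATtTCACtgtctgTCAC
Malat1 cluster of most tags, chr19:5797880-5797979, minus strand: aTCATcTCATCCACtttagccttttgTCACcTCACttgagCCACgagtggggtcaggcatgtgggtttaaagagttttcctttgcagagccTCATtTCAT
Malat1 cluster of NOVA1 alone, chr19:5797023-5797122, minus strand: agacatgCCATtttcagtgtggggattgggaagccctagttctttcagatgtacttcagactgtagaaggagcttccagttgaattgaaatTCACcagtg

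The windows differed in motif content, and the shares given are of windows taken at every start base. The Meg3 cluster of most NOVA2 tags held 5 YCAY in its best 100 nt, a number reached by 7.17% of all 100-nt windows in Meg3 exons. The second held 16, reached by 0.0751% of those windows, in a run of CCAT repeats. The third held 9, reached by 0.595%. The best window of the Malat1 cluster held 8, which only 2 of the 6883 windows of Malat1 reached. The NOVA1 cluster without NOVA2 overlap held 2, a number reached by 23.4% of Malat1 windows. These windows were picked as the richest of each cluster, so the shares describe them and test nothing.

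Meg3 is annotated at chr12:110779211-110809936, plus strand, with 10 transcripts and 18089 exonic nt. It had 19 NOVA1 clusters with 4181 tags and 21 NOVA2 clusters with 12026 tags. By summed tags it stood first of 2862 ranked genes with NOVA1 clusters and at place 3 of 5132 ranked genes with NOVA2 clusters. Genes of small, ribosomal, mitochondrial transfer and miscellaneous RNA were left out of all gene ranks here. Clusters outside the ranked genes were left out as well. Such a cluster was the highest of the NOVA1 list, with 9547 tags, above the Meg3 sum. Per length its level was 228 NOVA1 and 665 NOVA2 exonic tags per exonic kb, place 18 of 2109 genes and place 7 of 2405.

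Most Meg3 tags fell in the last exon of transcript Meg3-001, exon 5 at chr12:110796850-110809936. This 13087-nt exon held 15 of the 19 NOVA1 clusters with 95.4% of the Meg3 tags, and 18 of the 21 NOVA2 clusters with 97.2%. All of these clusters, in both lists, lay inside an intron of transcript Meg3-003. The call of exon or intron for them therefore depends on the transcript, and the lists do not say which transcript was bound. The clusters before this exon began 3.72 to 5.40 kb from the start of the gene, with 192 NOVA1 and 339 NOVA2 tags in sum.

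Tags were concentrated in few places. The 3 highest clusters held 85.2% of the Meg3 tags of NOVA1 and 89.3% of those of NOVA2, and they began 21.4 to 25.1 kb from the start of the gene. The remaining clusters had 10 to 132 NOVA1 tags and 11 to 311 NOVA2 tags. The order of the 3 differed between the proteins. NOVA1 had 1438 tags at 110804207-110805832, 1289 at 110802927-110803300 and 836 at 110800601-110801006. NOVA2 had 5106 tags at 110802927-110803291, 2916 at 110804302-110805206 and 2723 at 110800627-110800977. The cluster rich in CCAT was thus the first of Meg3 for NOVA1 and the second for NOVA2. It was also wider in the NOVA1 list, 1626 nt against 905 nt, and the NOVA1 cluster overlapped 4 NOVA2 clusters, one of them at its edge only, that together had 2979 tags.

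**Figure D1:**
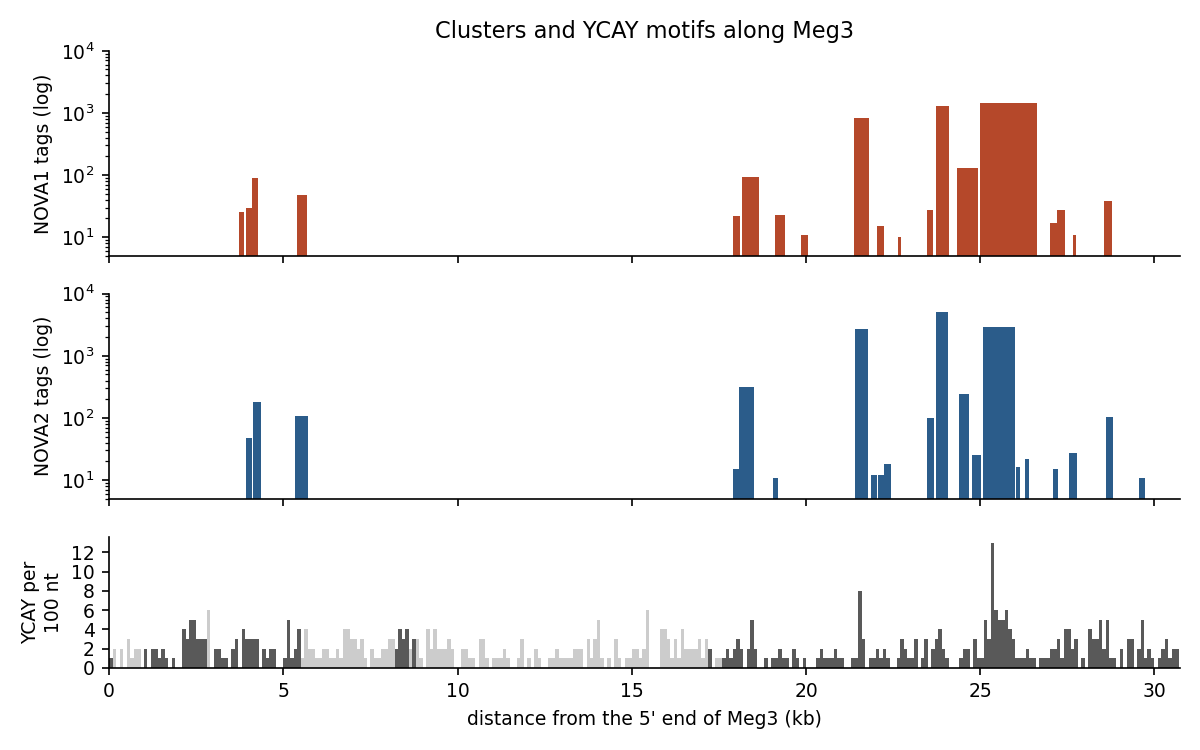
Clusters along Meg3 (x axis, kb from the 5′ end), drawn at their true width with the tag count of NOVA1 (top) and NOVA2 (middle) on log axes that start at 5. The lower panel counts YCAY per 100 nt, with exonic windows dark and intronic windows pale. Windows are consecutive blocks of 100 nt from the 5′ end. The 3 tallest clusters of both lists lie between 21 and 27 kb, and the block with the most YCAY, 13, lies inside the cluster rich in CCAT.

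Meg3 clusters of 1 list alone were weak. NOVA1 had 3 clusters with no NOVA2 overlap, with 25, 11 and 10 tags. NOVA2 had 1 with no NOVA1 overlap, with 11 tags at 110808775-110808942. One-to-one overlap, in which a cluster met a single cluster of the other list, joined 9 Meg3 pairs. The log2 ratio of NOVA1 to NOVA2 tags in these ran from -1.99 to 1.06 with a median of -1.30 (-1.89 to -0.73). It was above 0 at 1 pair only, 110798318-110798614 of NOVA1 with 23 tags against 110798258-110798397 of NOVA2 with 11.

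Beyond Meg3, the sequences shown next are those of the cluster at Mir493 and of the highest clusters in Rian, Mirg and Miat. Capitals again mark YCAY.
Cluster beside Mir493, chr12:110818319-110818418, plus strand: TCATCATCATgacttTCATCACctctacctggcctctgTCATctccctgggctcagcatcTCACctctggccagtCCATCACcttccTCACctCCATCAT
Rian cluster of most tags, chr12:110899388-110899452, plus strand: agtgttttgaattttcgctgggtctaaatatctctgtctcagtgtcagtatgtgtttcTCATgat
Mirg cluster, chr12:110979165-110979264, plus strand: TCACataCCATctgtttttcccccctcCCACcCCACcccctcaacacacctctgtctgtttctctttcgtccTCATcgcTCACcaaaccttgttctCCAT
Miat cluster of NOVA2, chr5:112642411-112642510, minus strand: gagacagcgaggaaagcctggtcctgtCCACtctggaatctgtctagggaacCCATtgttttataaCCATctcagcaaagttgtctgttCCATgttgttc
Miat cluster of NOVA1, chr5:112644266-112644365, minus strand: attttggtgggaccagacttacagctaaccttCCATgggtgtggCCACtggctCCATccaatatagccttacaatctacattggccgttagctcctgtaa

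The 32.2 kb between Meg3 and Rian also held clusters of both proteins, all outside annotated long genes of the plus strand. NOVA1 had 9 clusters with 233 tags, and each overlapped a NOVA2 cluster. NOVA2 had 17 clusters with 1086 tags, of which 7 overlapped a NOVA1 cluster and 10 did not. All lay within 110818268-110830956. The 10 clusters of NOVA2 alone had 10 to 32 tags, and the 7 that overlapped had 31 to 218. At 5 one-to-one pairs the log2 ratio of NOVA1 to NOVA2 ran from -3.12 to -1.49 with a median of -1.75.

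The strongest cluster of this interval touched a microRNA gene. NOVA2 had 218 tags at 110818268-110818479 and NOVA1 65 tags at 110818269-110818476, and these ends covered 37 and 34 nt of the 83-nt Mir493 hairpin at 110818443-110818525. Both covered all 19 nt of mature miR-493-5p and none of the 3p arm. Its best 100 nt, printed above, held 12 YCAY, the highest of 32119 windows of the interval and reached by 1. The mature sequence from RefSeq (GRCm38.p6), which matches mm9 at this hairpin, is given with the seed, bases 2 to 8, in capitals.
mmu-miR-493-5p: uUGUACAUgguaggcuuuc

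The mature miR-493-5p itself holds 0 YCAY. A NOVA2 cluster of 17 tags at 110824629-110824755 began 11 nt past Mir665.

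Rian, at chr12:110842155-110899919, held 6 clusters in each list, with 125 NOVA1 and 207 NOVA2 tags. In each list 4 lay in introns and 2 in exons. Of the 6, 5 overlapped between the lists. The highest lay in exon 21 of transcript Rian-201, with 56 NOVA1 tags at 110899387-110899432 and 74 NOVA2 tags at 110899388-110899452. It was narrow, 46 and 65 nt, and poor in the motif, with 0 YCAY in the NOVA1 and 1 in the NOVA2 cluster. It was also the only member cluster with a further copy in the genome, at 97.8% and 98.5% identity on chromosome X (61751528-61751573 and 61751529-61751593), where neither list had a cluster. Whether some of its tags came from that copy was not tested.

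The other Rian clusters had 10 to 18 NOVA1 and 13 to 67 NOVA2 tags. The second NOVA2 cluster, an intronic one of 67 tags at 110870666-110870862, met 18 NOVA1 tags. An exonic pair at 110884259-110884337 (NOVA1, 10 tags) and 110884212-110884334 (NOVA2, 18 tags) ended 1 and 4 nt before a SNORD113 gene, a C/D box small nucleolar RNA, and overlapped none of it. Each list had 1 intronic cluster without overlap, at 110882421-110882580 with 10 NOVA1 tags and at 110883282-110883364 with 13 NOVA2 tags. At the 5 pairs the log2 ratio of NOVA1 to NOVA2 had a median of -0.40 and ran from -1.90 to -0.15. This median was higher than that of the interval before Rian, with ranges that overlapped. The counts are not scaled to depth, so which of the 2 groups lay closer to equal binding cannot be said.

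Mirg, at chr12:110973191-110987665, had no NOVA1 cluster and 1 NOVA2 cluster, with 39 tags at 110979113-110979348. It lay in an exon of 1 of the 2 transcripts and in an intron of the other. Its best 100 nt held 7 YCAY, a number reached by 1.89% of the 100-nt windows in Mirg exons. Clusters also lay between the end of the stretch and Mirg, outside the members, with 4 NOVA1 clusters (108 tags) and 12 NOVA2 clusters (599 tags) over 73.2 kb. The nearest to the limit were at 110906535-110906677 with 37 NOVA1 tags and at 110906568-110906683 with 115 NOVA2 tags. In the 70 kb before Meg3 and the 70 kb after Mirg the plus strand had 0 clusters in both lists, and the strand opposite to each member had 0 as well.

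**Figure D2:**
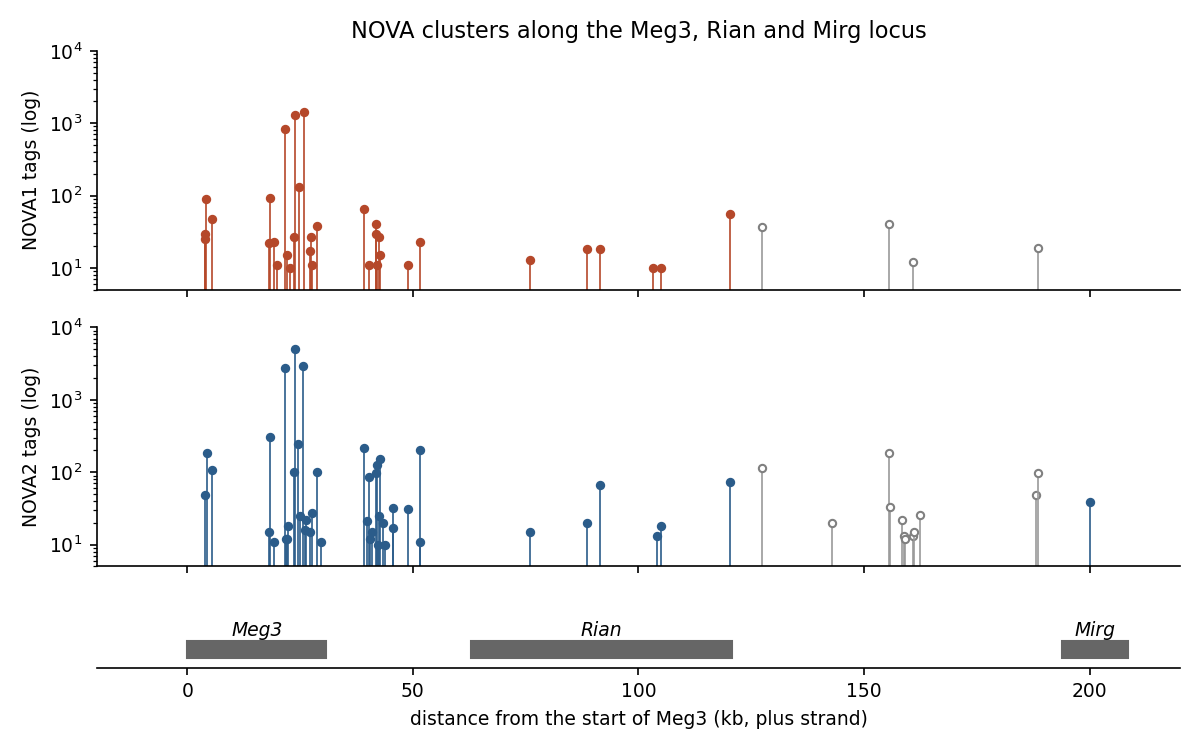
Tag count of each NOVA1 (top) and NOVA2 (middle) cluster, on log axes that start at 5, against distance from the start of Meg3 on the plus strand in kb, with the gene spans below. Filled points are members and open points lie between the stretch and Mirg. Counts peak in Meg3, at 1438 for NOVA1 and 5106 for NOVA2, and outside Meg3 no cluster exceeds 65 and 218.

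Of the protein-coding genes of the imprinted domain, Dlk1, a membrane protein related to Notch ligands, had 1 NOVA2 cluster with 42 tags. Begain, Rtl1 and Dio3 had none in either list. Rtl1, a gene derived from a retrotransposon, lies on the minus strand between Meg3 and Rian, at 110827404-110838540. The plus-strand clusters at 110828008-110828208 and 110830690-110830956 lie opposite to it.

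Malat1, at chr19:5795690-5802671 on the minus strand, is covered by 1 exon of 6982 nt. It had 12 NOVA1 clusters with 1721 tags and 8 NOVA2 clusters with 4816 tags. Per length this was 246 NOVA1 and 690 NOVA2 tags per kb, place 15 of 2109 and place 6 of 2405 genes. Meg3 stood at places 18 and 7, with more clusters in both lists. A single cluster held 85.2% of the NOVA1 tags (1467 at 5797771-5798323) and 92.5% of the NOVA2 tags (4456 at 5797764-5798235). It began 4.35 and 4.44 kb from the 5′ end.

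The other Malat1 clusters had 10 to 53 NOVA1 and 11 to 147 NOVA2 tags. NOVA2 clusters began from 3.59 to 6.21 kb from the 5′ end. NOVA1 clusters began from 1.90 to 6.33 kb. Each of the 8 NOVA2 clusters overlapped a NOVA1 cluster. NOVA1 had 4 without NOVA2 overlap, with 20, 14, 12 and 10 tags, and the last 3 of these lay closer to the 5′ end than any NOVA2 cluster. The cluster borders differed between the lists throughout, so no one-to-one pair was formed in Malat1. NOVA1 thus had more listed clusters than NOVA2 in this gene, although its whole list held 4.30-fold fewer tags. That ratio is of tags in listed clusters and is not the ratio of sequencing depth.

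**Figure D3:**
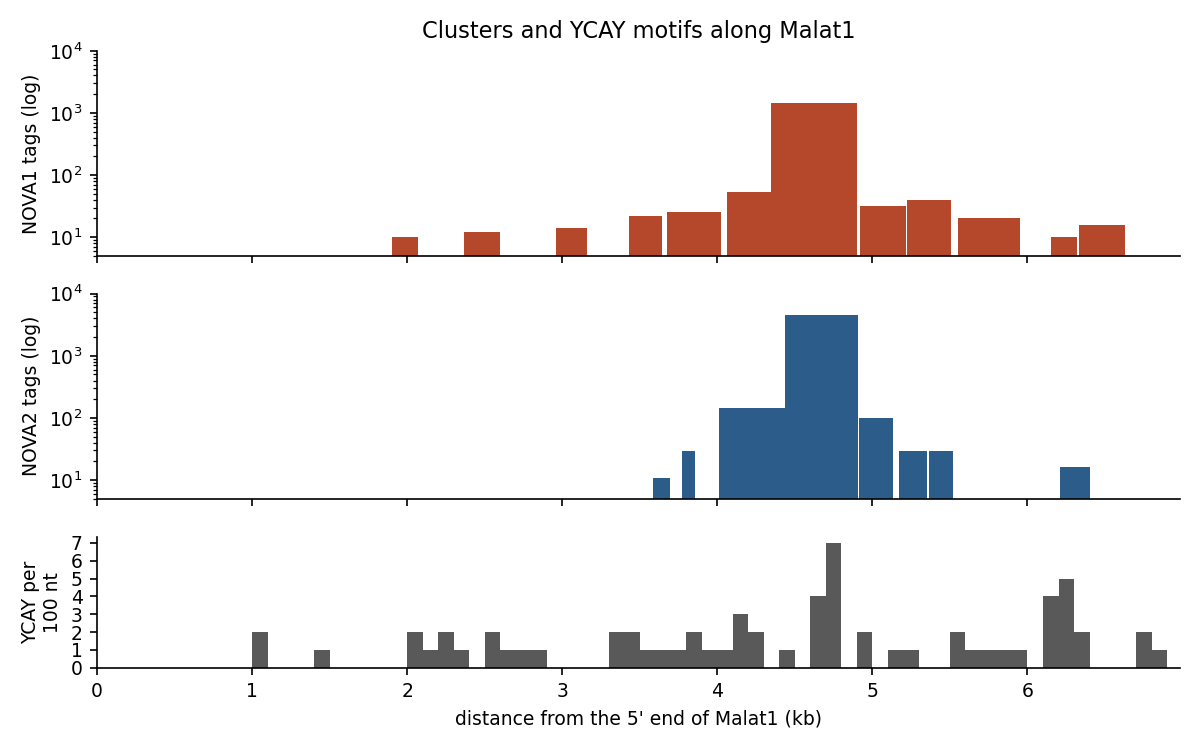
Clusters along Malat1 (x axis, kb from the 5′ end), at true width, with NOVA1 (top) and NOVA2 (middle) tags on log axes that start at 5 and YCAY per 100 nt below. Motifs are counted in consecutive blocks of 100 nt from the 5′ end. The tallest cluster of both lists covers the block with the most YCAY, 7, and the first 1.90 kb hold no cluster.

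Neat1, 22.0 kb from Malat1 at chr19:5824708-5845478 on the same strand, had no NOVA1 cluster and 1 NOVA2 cluster, with 28 tags. This was 1.35 exonic tags per kb, against 690 in Malat1. The cluster held 8 YCAY. Neat1 exons contained 354 YCAY in all. Of their 207 consecutive 100-nt blocks 8 held at least 5, none of them under a cluster, a count that depends on where the blocks begin. Only 2 of the 207 blocks lay under a cluster at all, so this count says little about rich blocks.

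Miat, at chr5:112642248-112657968 on the minus strand, was the only one of the 6 genes with clusters of both proteins and no overlap between them. NOVA1 had 1 cluster, with 39 tags at 112644176-112644365. NOVA2 had 3, with 38 tags at 112642367-112642510, 10 at 112645878-112645937 and 11 at 112650286-112650394. All lay in exons and none overlapped between the lists. The NOVA1 cluster had 4 YCAY and the NOVA2 clusters 4, 1 and 3. Counts this close to the limit of 10 tags do not show that a protein was absent from the places of the other.

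One-to-one pairs of the members lay only in Meg3, Rian and the interval between them. They had a median log2 of NOVA1 over NOVA2 tags of -1.42 (-1.89 to -0.73, 19 pairs), and 1 of 19 lay above 0. These counts are not scaled to depth. The median was 0.68 with tags divided by the list totals and -0.076 with tags divided by the unique tag totals of the libraries, so its sign depends on the scale. The 6770 pairs of the whole lists had a median of -1.34 (-1.39 to -1.30), and 14.8% of them lay above 0. The median was -1.20 (-1.32 to -0.58) in 57 pairs of noncoding exons outside the members, -2.04 (-2.08 to -2.00) in introns and -0.36 (-0.42 to -0.32) in exons of coding transcripts. The 19 member pairs all lie in the same imprinted stretch and are not replicates, so no difference from these groups was tested. Of the members, only 2 one-to-one pairs had 100 or more tags in both lists. They were the highest of Meg3 and lay at -1.99 and -1.70. The 163 such pairs of the whole lists had a median of -0.71. The highest Malat1 cluster and the Meg3 cluster rich in CCAT also had over 100 tags in each list, but formed no one-to-one pair. With every overlapping pair of the members counted, the median was -0.87 (-1.49 to -0.15).

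**Figure D4:**
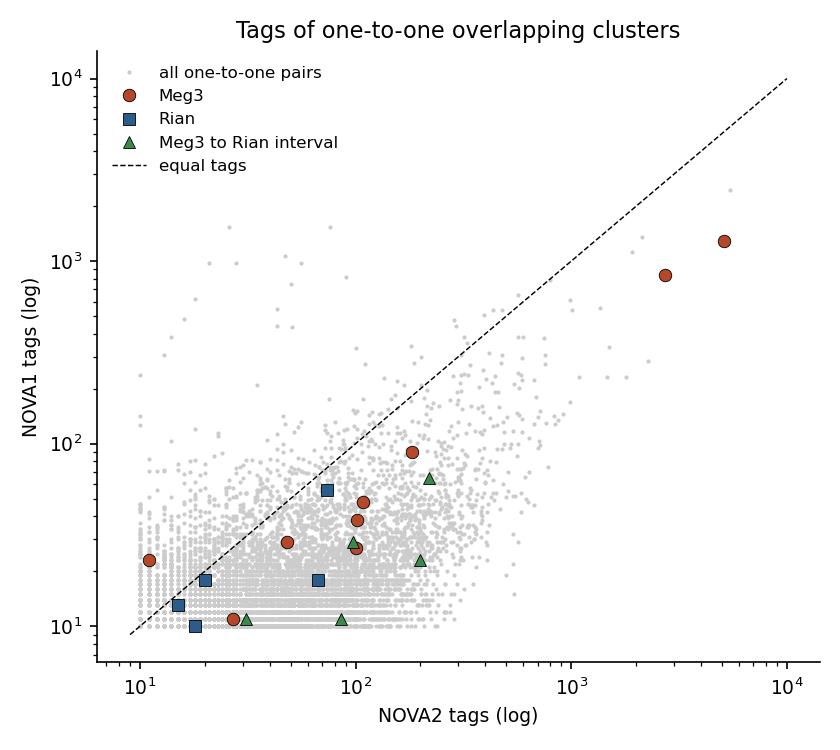
NOVA1 against NOVA2 tags of clusters that overlapped one to one, on log axes, for all 6770 pairs (grey) and for the 19 member pairs in Meg3, Rian and the interval between them (coloured). The dashed line marks equal tags, and 1 of the member pairs, in Meg3, lies above it.

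Of the member clusters, 38 of 47 NOVA1 clusters (80.9%, 67.5 to 89.6) overlapped a NOVA2 cluster, against 80.1% of the whole NOVA1 list, so this share was near the background. Of the NOVA2 clusters, 40 of 57 (70.2%, 57.3 to 80.5) overlapped a NOVA1 cluster, against 22.1% of the whole NOVA2 list and 39.4% of 188 clusters in noncoding exons outside the members. With both lists limited to 20 or more tags, the NOVA2 share was 66.7% in the members, 18.3% in the whole list and 37.9% in the other noncoding exons. With NOVA2 reduced to its 9988 highest clusters it was 88.0% of 25 member clusters, 52.0% of the whole reduced list and 73.8% of 65 clusters in other noncoding exons. The distance to the other groups was smaller under this reduction, but little changed under the limit of 20 tags. Overlapping clusters held 97.6% of the NOVA1 and 98.2% of the NOVA2 member tags. The highest member cluster without overlap had 39 tags in each list, in Miat for NOVA1 and in Mirg for NOVA2.

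Most member clusters lay in exons, a share that the choice of these genes helped to set. The exon count was 33 of 47 for NOVA1 (70.2%, 56.0 to 81.3), against 48.1% of the whole list, and 36 of 57 for NOVA2 (63.2%, 50.2 to 74.5), against 14.3%. Exons held 94.6% and 93.4% of the member tags. Of the 36 exonic NOVA2 clusters 30 overlapped a NOVA1 cluster, and of the 21 outside exons 10 did. Outside the members, 39.4% of 188 NOVA2 clusters in noncoding exons and 14.1% of 27288 in introns overlapped a NOVA1 cluster. Member clusters outside exons lay in Rian introns and between Meg3 and Rian. The exception was 1 NOVA1 cluster of Meg3, at 110784613-110784897, of which 49.1% was exonic.

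YCAY was denser in member clusters than in the rest of the exons of the same genes. Exonic NOVA1 clusters held 21.1 YCAY per 1000 positions against 11.4 outside clusters, 1.86-fold higher (1.61 to 2.13), and exonic NOVA2 clusters 26.8 against 13, 2.07-fold higher (1.80 to 2.36). In Meg3 the fold was 1.66 (1.40 to 1.95) for NOVA1 and 1.87 (1.59 to 2.20) for NOVA2. In Malat1 it was 3.25 (2.4 to 4.30) and 4.0 (2.74 to 5.65). These intervals take the density outside clusters as exact, and in Malat1 it rests on only 15 YCAY in 3390 positions. Whether the folds of Malat1 and Meg3 differ was not tested. In the introns of Rian the fold was 2.08 (1.19 to 3.38) and 2.04 (1.17 to 3.32). The single NOVA2 clusters of Mirg and Neat1 gave 2.41 (1.2 to 4.31) and 2.80 (1.21 to 5.52). The intervals of the exonic Rian clusters and of Miat held 1 in both lists.

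Malat1 had the lowest motif density of the 6 genes, 9.46 YCAY per 1000 exonic positions, against 16.2 to 21.6 in the others. Its clusters covered 51.1% of its exonic length but 77.3% of its YCAY, 51 of 66. In Meg3 the clusters covered 39.0% of exonic length and 50.7% of 341 YCAY, and in Neat1 0.833% and 2.26%. Neat1 had 17 YCAY per 1000 exonic positions, a higher density than Malat1 with far fewer tags per kb.

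**Figure D5:**
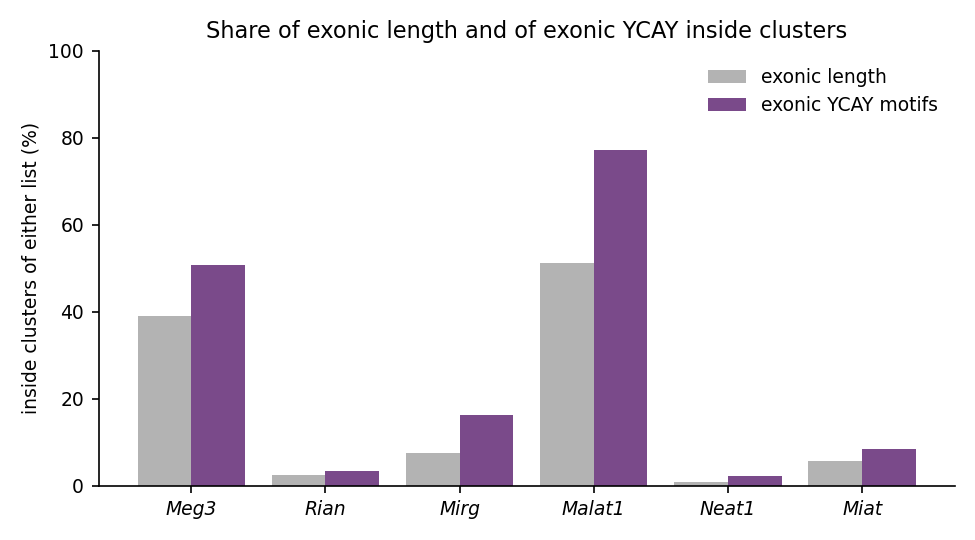
Share of exonic length (grey) and of exonic YCAY motifs (purple) that lay inside clusters of either list, in percent, for the 6 genes. The purple bar is taller in each gene, with the widest gap in percentage points in Malat1, 77.3% against 51.1%.

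The member clusters held fewer motifs per length than the lists as a whole. Over exons, introns and the interval they held 25.4 (NOVA1) and 31.9 (NOVA2) YCAY per 1000 positions. The whole lists held 36.8 and 42.4, and clusters in noncoding exons outside the members 26.4 and 34.9. Member clusters were also wider than those in other noncoding exons, with medians of 192 and 175 nt against 124 and 108 nt. Density was not adjusted for width. The interval between Meg3 and Rian had 54.3 and 46.1, near the 53.5 and 44.9 of clusters in introns outside the members. Among the highest clusters, motif density varied. The NOVA2 cluster of 5106 tags held 24.9 YCAY per 1000 and that of Malat1, with 4456 tags, 25.6, both below the list as a whole. The Meg3 cluster of 2916 tags held 55.4, with 50 YCAY in 905 nt at a median spacing of 12 nt, 24 of them CCAT. Of the 14 exonic consecutive 100-nt blocks of Meg3 with at least 5 YCAY, 10 lay under NOVA2 clusters and 9 under NOVA1 clusters, so some rich blocks had no listed cluster. Of all 180 exonic blocks, 52 lay under NOVA2 and 62 under NOVA1 clusters. In each list, most of the rich blocks under clusters lay in the cluster rich in CCAT.

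Cluster names in the lists carry a number that follows position on each chromosome and strand, with 0 of 9946 NOVA1 and 0 of 36548 NOVA2 neighbours out of order. Many numbers are skipped, and what a skipped number stands for is not given in the sources used here. Counted to the highest number of each chromosome and strand, 2.54% of NOVA1 and 5.19% of NOVA2 numbers were listed in the whole lists. From the first to the last listed Meg3 cluster, 78 NOVA1 numbers held 19 listed clusters and 89 NOVA2 numbers held 21. Malat1 was listed more densely, with 12 of 18 NOVA1 and 8 of 15 NOVA2 numbers. Around the single Neat1 cluster, 31 of 32 NOVA2 numbers were skipped over the 94.5 kb between its listed neighbours, a stretch longer than the gene. That is near the share of the whole NOVA2 list and shows nothing particular to Neat1.

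Of 21 other long noncoding RNA genes named for comparison, 14 were found by symbol in the annotation. Of these 6 had NOVA1 clusters, 8 had NOVA2 clusters and 6 had none. Together they had 707 NOVA1 and 2035 NOVA2 tags. These sums include Snhg11, which the annotation used here types as protein-coding, with 105 NOVA1 and 68 NOVA2 tags. Xist, the RNA of X inactivation, had 32.2 NOVA2 tags per exonic kb, and Tug1 had 4.35. C130071C03Rik, with 124, was the highest of them per length, below the 690 of Malat1 and the 665 of Meg3. Airn, H19, Nespas, Gas5, Snhg1 and Tsix had no cluster in either list. Among all genes annotated as long noncoding outside the members, 39 had NOVA1 and 101 had NOVA2 clusters, with 2221 and 11157 tags. The 5 of most NOVA2 tags were Ttc28 (annotated here as a lincRNA), with 1812, 2610307P16Rik with 1056, Sox2ot with 648, A330076H08Rik with 592 and Xist with 559. Only Xist of these had its NOVA2 clusters in exons.

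By the pair of summed NOVA1 and NOVA2 tags on the log2 scale, over 2653 genes bound in both lists, the gene closest to Meg3 was Shisa7, at a distance of 1.34. Gpm6a, a neuronal membrane glycoprotein, was closest to Malat1 at 0.44, Cct2, a chaperonin subunit, to Rian at 0.04 and Ptplad1 to Miat at 0.06. All 4 are protein-coding genes, and the likeness rests on only 2 pooled values per gene. Gpm6a spread its 3750 NOVA2 tags over 33 clusters, where Malat1 had 4816 in 8.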

How the data were processed

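NOVA1 and NOVA2 HITS-CLIP libraries (3 each) from wild-type CD1 cortex at embryonic day 18.5 were used as 2 cluster lists. The authors aligned tags to mm9 with Novoalign (version not given in the sources used here), removed PCR duplicates and kept clusters found in at least 2 of the 3 libraries. The deposited counts are whole numbers, 1 per cluster and at least 10, pooled over the libraries and not normalized, called tags here although they may be peak heights. Unique tag totals per library, which the authors state, entered 1 alternative scaling. Precision of shares (Wilson intervals) and of YCAY folds (exact Poisson intervals, with the background taken as exact) is given only as counting error. Order-statistic intervals of medians reflect the spread between pairs. All are 95% intervals. The member genes and comparison lists were chosen with earlier results of these data known.

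Positions are counted from 1 in mm9 (NCBIM37). Each cluster took the GENCODE vM1 class covering most of its nt on its strand, without retained introns. Coordinates, genes and YCAY (cluster strand) were computed with Python 3.11.15, NumPy 2.4.6, SciPy 1.17.1, pysam 0.24.0 and matplotlib 3.10.9. BLAST+ 2.17.0 found further copies, at 90% identity or more across 50% or more of a cluster. RNA-seq was not analysed here. Named were the 6 genes, their 3 highest clusters per list and the highest without overlap, small RNA genes under or beside a cluster, the nearest gene by tags, and the 5 long noncoding genes outside the members with most NOVA2 tags. Functions were tested on simulated data. Alternatives were other overlap, tag, class and YCAY background rules. Some items of this rule, sequences and positions are not reported here.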

Additional observations from a re-analysis of the deposited data

How the results depend on the processing

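No paired analysis was possible because the deposited counts are pooled over the 3 libraries of a protein, and for the same reason no library could be left out. The limits are the threshold of 10 tags, the pooling of libraries of unequal depth and the lack of values per library. With 20 or more tags, 28 NOVA1 and 36 NOVA2 clusters remained, and with 30 or more, 16 and 25. The share of list tags then rose, at 20 or more tags, to 2.72% for NOVA1 and 1.72% for NOVA2. Without mitochondrial and ribosomal-repeat-like clusters the NOVA1 share was 2.18%. Without the 4 highest member clusters, an alternative chosen after seeing the data, the shares were 0.416% and 0.234%. With NOVA2 limited to as many clusters as NOVA1, overlap was 55.3% for NOVA1 and 88.0% for NOVA2 member clusters. Tags divided by list totals turned the median log2 ratio of pairs to 0.68, and tags divided by the unique tag totals of the libraries, chosen after seeing the data, moved it to -0.076, each the same shift for every pair. Against flanks 200 to 500 nt away the YCAY fold was 1.41 for NOVA1 and 1.67 for NOVA2. In 29 of the 44 alternatives counts stayed within 1.5 times and other values within their interval. Without the Meg3 cluster of most YCAY, also chosen after seeing the data, the folds were 1.71 and 1.83.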
